A study of Mus musculus with 6 samples.

Results

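Transcripts of 10 genes that direct mesenchymal cells towards bone, cartilage or fat were followed in differentiating mouse myoblasts: Runx1, Runx2, Sp7, Sox9, Alpl, Pparg, Cebpa, Cebpb, Cebpd and Prdm16. The genes were taken by symbol from a list of regulators of fates other than muscle. Of the 10, 9 had a row among the 17558 genes of the deposited table, and Prdm16 was not analysed here. Of these 9, 8 had enough counts for a test and Sp7 did not. The cells were C2C12, an immortalized line of mouse myoblasts that exits the cell cycle and fuses into myotubes in low-serum medium. All 6 libraries came from cells that stably carried a short hairpin RNA (shRNA) and were collected after 48 h in differentiation medium with horse serum, insulin, transferrin and selenium. The control carried a scrambled hairpin (shScr), and the other groups carried a hairpin against Pkm1 or Pkm2, splice isoforms of pyruvate kinase that are encoded by Pkm (shPkm1 and shPkm2), with 2 libraries in each group. The labels give the genotype of shScr as wild type and that of the other groups as knockdown of the named isoform. How many hairpin sequences were used, and whether a line was 1 clone, is not given in the sources used here. Nothing in the labels says that libraries of a group came from separate cultures, so p-values measure the spread between these libraries, which may be technical.

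Muscle, bone, cartilage and fat cells can arise from related mesenchymal progenitors, and each fate is set by a small group of transcription factors. Runx2 and its downstream factor Sp7 (osterix) direct osteoblast formation, and Alpl encodes the tissue-nonspecific alkaline phosphatase that osteoblasts use in mineralization. Sox9 directs cartilage formation. In fat cell formation Cebpb and Cebpd act early and induce Pparg and Cebpa, which then sustain the fat cell programme, while Prdm16 directs brown fat against muscle. C2C12 cells are known to take up osteoblast features when bone morphogenetic protein is added.

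Promoter sequences are shown for 3 called genes, chosen as examples: Runx1 and Runx2, paralogues whose windows share a stretch, and Cebpa, a fat regulator with 1 window. The RefSeq table used gave no window for Sox9, Cebpd or Sp7, and the windows of Pparg, Alpl, Cebpb and Prdm16 are not printed. Each is a RefSeq window on build GRCm38.p6 from 250 bases before to 50 bases after an annotated start site, written 5′ to 3′ on the gene's strand. Capitals mark matches to the motifs searched on both strands: TGTGGT (read ACCACA on the other strand), which Runx proteins recognise, CAGCTG, an E-box that MyoD binds, CACGTG, another E-box, and TTGCNNCAA, recognised by C/EBP proteins. These motifs do not overlap each other in the windows shown.
Runx1, distal start, chr16:92826025-92826324, minus strand: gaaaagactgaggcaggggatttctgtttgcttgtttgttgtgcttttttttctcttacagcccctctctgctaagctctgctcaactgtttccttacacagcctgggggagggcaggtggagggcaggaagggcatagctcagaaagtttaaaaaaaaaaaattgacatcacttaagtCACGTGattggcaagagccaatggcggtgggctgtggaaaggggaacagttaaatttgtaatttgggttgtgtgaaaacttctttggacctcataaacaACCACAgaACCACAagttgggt
Runx2, distal start, chr17:44814578-44814877, minus strand: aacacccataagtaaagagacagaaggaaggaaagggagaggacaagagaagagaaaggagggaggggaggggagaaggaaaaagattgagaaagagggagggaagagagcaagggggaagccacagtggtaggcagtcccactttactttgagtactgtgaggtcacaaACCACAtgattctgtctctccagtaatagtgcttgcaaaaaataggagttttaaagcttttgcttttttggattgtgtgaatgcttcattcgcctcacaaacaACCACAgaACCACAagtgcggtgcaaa
Cebpa, chr7:35119043-35119342, plus strand: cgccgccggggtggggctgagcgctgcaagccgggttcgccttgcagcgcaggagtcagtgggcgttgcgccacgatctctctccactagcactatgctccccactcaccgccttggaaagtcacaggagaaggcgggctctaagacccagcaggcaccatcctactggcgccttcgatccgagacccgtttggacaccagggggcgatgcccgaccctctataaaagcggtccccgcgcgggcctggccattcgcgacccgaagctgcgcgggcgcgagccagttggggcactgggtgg
Runx1 and Runx2, longest stretch shared by these windows: aaacaACCACAgaACCACAagt
The Runx1 window held 2 matches to TGTGGT, at positions 28 and 36 after the start site, which counts as position 0, and 1 match to CACGTG at position -71. The Runx2 window held 3 matches to TGTGGT, at positions -80, 23 and 31. The last pair in each gene lay in the 22-base stretch, which is identical in both genes and occurred in 2 of 32851 RefSeq windows of the same length. No match to the 4 motifs lay in the Cebpa window. Windows were found for 7 of the 10 genes, 11 in all. TGTGGT was in 2 of the 11, CAGCTG in 1 of them (Alpl), CACGTG in 1 (Runx1) and TTGCNNCAA in none. Among all 32851 windows, 16.8% held TGTGGT, 16.3% CAGCTG, 7.15% CACGTG and 2.08% TTGCNNCAA. A match describes these letters and is not evidence of binding.

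The libraries held 18216896 to 19796036 estimated counts each. The targeted gene was checked first. The Pkm1 isoform stood at 546 and 589 TPM (the deposited level per transcript length) in shScr, 243 and 218 in shPkm1 and 254 and 254 in the shPkm2-labelled libraries. The Pkm2 isoform stood at 1073 and 1517 TPM in shScr, 1278 and 1379 in shPkm1 and 2700 and 2630 in the shPkm2-labelled libraries. The isoform named by the label was thus not lower in the shPkm2-labelled libraries, and every direction given for that group is by label. The muscle markers checked the cell type: Myog, a factor of the onset of differentiation, was at 2051 to 2126 TPM in shScr, 1430 to 1437 in shPkm1 and 67.2 to 73.5 in the shPkm2-labelled libraries. Of 12 muscle markers 11 were tested, and 10 fell in each comparison with shScr (90.9% of the 11, against 31.4% of all genes lower in shPkm1 and 34.2% in the shPkm2-labelled libraries). The exception was Myf5, a factor of myoblast commitment, at 11.6 and 13.4 TPM in shScr, 20.8 and 18.2 in shPkm1 and 59.4 and 54.2 in the shPkm2-labelled libraries. It rose in the latter (log2 fold change 1.74, SE 0.105, adjusted p 9.39e-09). In shPkm1 its change was 0.25 (adjusted p 0.0588), which passed with library totals (0.45, adjusted p 0.0057). In these bulk libraries fewer cells of a type and less RNA per cell cannot be told apart.

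The 8 tested regulators did not move as a block. Runx2 and Cebpa were higher in both Pkm-targeting groups, Cebpd was lower in both, Pparg was higher in shPkm1, and Sox9 and Runx1 changed most in the shPkm2-labelled libraries, Sox9 to a higher and Runx1 to a lower level. In edgeR's quasi-likelihood test, 5 of the 8 (62.5%) passed an adjusted p of 0.05 in shPkm1 against shScr, where 63.1% of all 12643 tested genes did. Of the 5, 3 were higher, with 31.8% of all genes higher, and 2 were lower, with 31.4% of all genes lower. In the shPkm2-labelled libraries against shScr, 5 of the 8 (62.5%) passed, against 68.0% of all genes. Again 3 were higher and 2 lower, against 33.9% and 34.2% of all genes. Comparing the Pkm-targeting groups, 4 of the 8 (50%) passed, against 53.0% of all genes, and 1 was higher and 3 were lower, against 25.7% and 27.3% of all genes. These shares lie near those of all genes, so the number of calls is no property of the regulators. The first pair of comparisons uses the same shScr libraries.

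**Figure D1:**
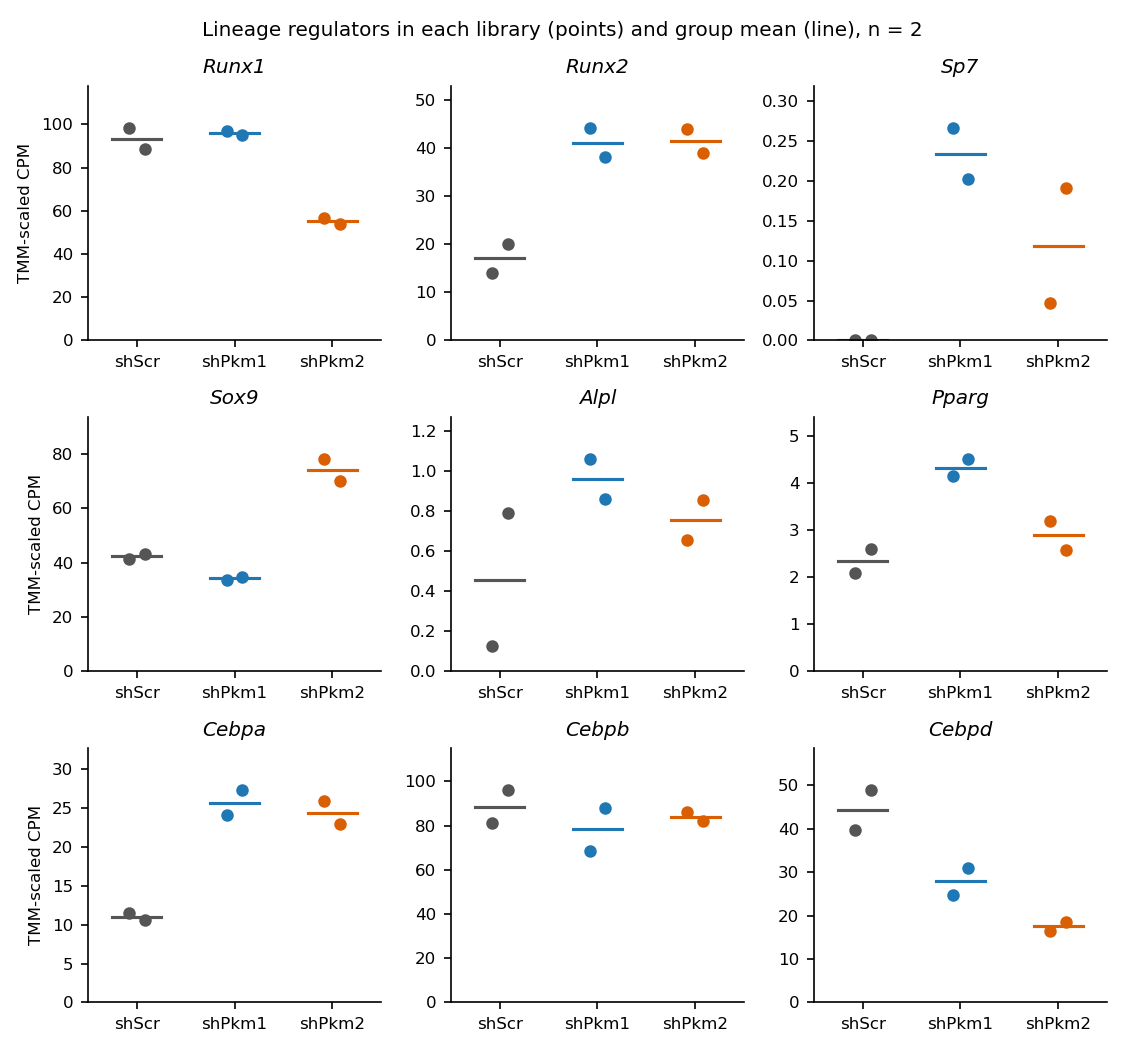
Level of each of the 9 regulators with a row in every library, in TMM-scaled CPM (vertical axis, a separate scale from 0 for each gene), by group on the horizontal axis. Points are libraries and lines are means of 2. Runx2 and Cebpa sit at their lowest in shScr, Cebpd falls from shScr through shPkm1 to shPkm2, and Sox9 is highest and Runx1 lowest in shPkm2.

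Among the bone regulators, Runx2 showed the clearest difference from the control. Its level, in CPM (counts scaled to library size and corrected for composition by edgeR's TMM factors), was 14.1 and 20.1 in the shScr libraries, 44.1 and 38.1 in shPkm1 and 43.9 and 39.0 in the shPkm2-labelled libraries. Every Pkm-targeting library lay above both control libraries, and the Pkm-targeting groups overlapped each other. Runx2 was 2.4-fold higher in shPkm1 than in shScr (95% interval of the edgeR fit 1.91 to 3.0; log2 fold change 1.26, SE 0.15, adjusted p 9.84e-06). It was 2.42-fold higher in the shPkm2-labelled libraries (1.93 to 3.02; log2 fold change 1.27, SE 0.15, adjusted p 5.92e-06). A larger absolute log2 fold change than that of Runx2 was found for 15.8% of all tested genes in shPkm1 and 20.2% in the shPkm2-labelled libraries. Between the Pkm-targeting groups the log2 difference was 0.01, with a 95% interval from -0.29 to 0.31 (adjusted p 0.953).

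Runx1, the paralogue known best from blood formation and also expressed in skeletal progenitors, had another pattern. It was at 98.1 and 88.4 CPM in shScr, 96.8 and 95.1 in shPkm1 and 56.6 and 54.0 in the shPkm2-labelled libraries. The shPkm1 values lay within the range of the controls, and both shPkm2-labelled libraries lay below every other library. In TPM, shPkm1 (27.6 and 26) lay above shScr (20.1 and 20.6). The log2 fold change was -0.75 in the shPkm2-labelled libraries against shScr (SE 0.0982, adjusted p 1.54e-05) and -0.79 against shPkm1 (SE 0.0979, adjusted p 1.54e-05). In shPkm1 against shScr it was 0.04 (interval -0.17 to 0.25, adjusted p 0.724). That value became a call with limma on log2(TPM + 1), at 0.38 (adjusted p 0.0183), and changed sign to -0.03 without the second shScr library.

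Sp7 was at the limit of detection. It had 0 and 0 estimated counts in shScr, 5 and 4 in shPkm1 and 1 and 4 in the shPkm2-labelled libraries, where a count of 0 allows up to 3. These counts were below the filter for testing, and the levels did not exceed 0.16 TPM. With no filter on low counts edgeR gave an adjusted p of 0.0352 for shPkm1 against shScr, 0.117 for the shPkm2-labelled libraries against shScr and 0.509 between the Pkm-targeting groups.

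Alpl was also low, with 2 and 14 estimated counts in shScr, 20 and 17 in shPkm1 and 14 and 18 in the shPkm2-labelled libraries. In CPM the second shScr library (0.791) lay within the range of the Pkm-targeting libraries (0.659 to 1.06) and the first (0.127) lay below all others. On the TPM scale both shScr libraries (0.07 and 0.49) lay below the rest (0.52 to 0.8). The log2 fold change was 1.01 in shPkm1 against shScr (SE 0.555, interval -0.19 to 2.21, adjusted p 0.129), 0.67 in the shPkm2-labelled libraries (SE 0.569, interval -0.56 to 1.9, adjusted p 0.309) and -0.34 between the Pkm-targeting groups (adjusted p 0.583). The change in Alpl did not pass the threshold in any comparison as reported. The shScr libraries decided this value: without the second the change was 2.86 in shPkm1 (adjusted p 0.00187) and 2.52 in the shPkm2-labelled libraries (adjusted p 0.00714). Without the first shScr library it was 0.28 (adjusted p 0.647) and -0.06 (adjusted p 0.926). In shPkm1, limma on log2(TPM + 1) also gave a call, at 0.44 (adjusted p 0.0194).

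The cartilage regulator Sox9 differed most between the Pkm-targeting groups. It stood at 41.4 and 43.2 CPM in shScr, 33.5 and 34.9 in shPkm1 and 78.0 and 70.0 in the shPkm2-labelled libraries. The groups did not overlap, with shPkm1 lowest and the shPkm2-labelled libraries highest. Sox9 rose 1.75-fold in the shPkm2-labelled libraries against shScr (interval 1.51 to 2.03; log2 fold change 0.81, SE 0.101, adjusted p 1.01e-05) and 2.16-fold against shPkm1 (1.86 to 2.52; log2 fold change 1.11, SE 0.101, adjusted p 9.28e-07). In shPkm1 against shScr the log2 fold change was -0.31 (SE 0.103, adjusted p 0.02), a call that depended on the scaling. It was -0.11 with library totals (adjusted p 0.404) and 0.08 with limma on log2(TPM + 1) (adjusted p 0.627). Without either shPkm1 library the change was much the same, at -0.26 and -0.33, and missed the threshold with fewer libraries (adjusted p 0.137 and 0.0643). In TPM, Sox9 was at 13 and 15.3 in shScr and at 15.1 and 14.9 in shPkm1, so on that scale the groups overlapped.

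Among the fat regulators, Cebpa was higher in both Pkm-targeting groups. It was at 11.5 and 10.6 CPM in shScr, 24.1 and 27.3 in shPkm1 and 25.9 and 23.0 in the shPkm2-labelled libraries. All 4 Pkm-targeting libraries lay above the controls and overlapped each other. Cebpa rose 2.33-fold in shPkm1 (interval 1.92 to 2.82; log2 fold change 1.22, SE 0.128, adjusted p 3.34e-06) and 2.22-fold in the shPkm2-labelled libraries (1.83 to 2.68; log2 fold change 1.15, SE 0.128, adjusted p 3.68e-06). Between the Pkm-targeting groups the log2 difference was -0.07, with an interval from -0.33 to 0.18 (adjusted p 0.63).

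Pparg, the nuclear receptor that works with Cebpa in fat cells, was expressed at a low level. Its estimated counts were 33 and 46 in shScr, 78 and 89 in shPkm1 and 68 and 54 in the shPkm2-labelled libraries, or 2.09 and 2.6, 4.15 and 4.5, and 3.2 and 2.58 CPM. The shPkm1 libraries lay above all others, and the shPkm2-labelled libraries overlapped the controls, though not in TPM (3.03 and 2.41 against 1.55 and 1.84). Pparg rose 1.84-fold in shPkm1 against shScr (interval 1.28 to 2.64; log2 fold change 0.88, SE 0.241, adjusted p 0.00641). This rise kept its call under every scaling tried. Its log2 fold change in the shPkm2-labelled libraries was 0.30 (SE 0.249, interval -0.24 to 0.83, adjusted p 0.307), which passed the threshold with library totals (0.62, adjusted p 0.0465) and with limma on log2(TPM + 1) (0.46, adjusted p 0.012). Against shPkm1 it was lower by -0.58 on the log2 scale (SE 0.228, adjusted p 0.046). This call was lost under 8 of 15 alternatives. These were DESeq2 (adjusted p 0.166), library totals (0.122), limma on log2(TPM + 0.1) (0.0591), the replicate block (0.0543) and each of the 4 fits without a library of these groups (0.0764 to 0.268, at a change of -0.75 to -0.44).

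The early factor Cebpb had the highest level per length of the regulators in every group. It was at 81.1 and 95.9 CPM in shScr, 68.7 and 88.0 in shPkm1 and 86.2 and 81.9 in the shPkm2-labelled libraries, with all groups overlapping. In TPM the shPkm2-labelled libraries (115 and 103) lay above shScr (71.8 and 96.3). The log2 fold changes were -0.18 (interval -0.45 to 0.09, adjusted p 0.236) in shPkm1 against shScr, -0.07 (-0.34 to 0.2, adjusted p 0.612) in the shPkm2-labelled libraries against shScr and 0.10 (-0.17 to 0.37, adjusted p 0.516) between the Pkm-targeting groups. The signs against shScr turned with the scaling: library totals gave 0.01 and 0.25, and limma on log2(TPM + 1) gave 0.21 (adjusted p 0.23) and 0.38 (adjusted p 0.0319). Without the first shScr library the change in shPkm1 was -0.29 and passed the threshold (adjusted p 0.0215).

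Cebpd, the other early factor, was lower in both Pkm-targeting groups. It was at 39.7 and 48.8 CPM in shScr, 24.7 and 31.0 in shPkm1 and 16.5 and 18.6 in the shPkm2-labelled libraries. The 3 groups did not overlap in CPM. In TPM, shScr (23.3 and 32.3) and shPkm1 (20.8 and 24.6) did. The log2 fold change was -0.67 in shPkm1 against shScr (SE 0.135, adjusted p 8e-04), -1.34 in the shPkm2-labelled libraries against shScr (SE 0.139, adjusted p 1.89e-06) and -0.67 between the Pkm-targeting groups (SE 0.141, adjusted p 0.00132). In shPkm1 the call was lost with limma on log2(TPM + 1), at -0.27 (adjusted p 0.161). The members of the C/EBP family thus differed in direction within these libraries: Cebpa was higher, Cebpd lower and Cebpb without a call in each Pkm-targeting group against shScr.

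**Figure D2:**
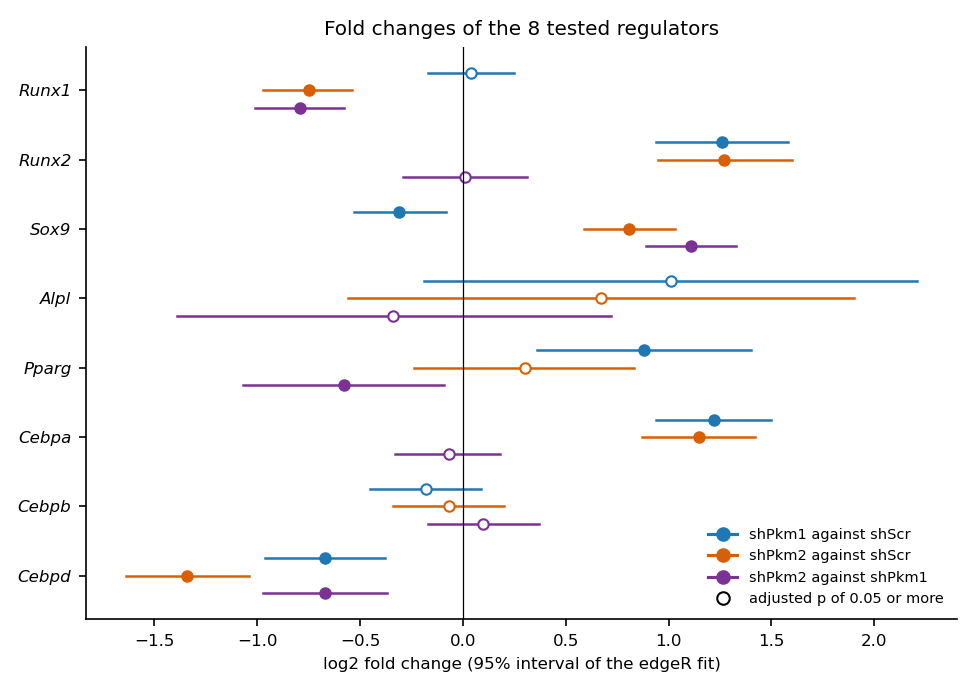
Log2 fold change (horizontal axis) of the 8 tested regulators in the 3 comparisons, with the 95% interval of the edgeR fit as a line. Filled points passed an adjusted p of 0.05 and open points did not. Runx2 and Cebpa lie to the right of 0 in both comparisons with shScr and at 0 between the Pkm-targeting groups, and the intervals of Alpl are the widest.

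The order of the regulators by level per length also changed. In shScr the mean TPM ran from Cebpb (84.1 ± 17.3, SD, n = 2) through Cebpd (27.8 ± 6.38), Runx1 (20.4 ± 0.382), Sox9 (14.2 ± 1.62), Cebpa (5.85 ± 0.141), Runx2 (5.01 ± 1.51) and Pparg (1.69 ± 0.205) to Alpl (0.28 ± 0.297) and Sp7, listed at 0. The ranges of Cebpa and Runx2 overlapped, and no other neighbours did. In shPkm1 the order was Cebpb (96.6 ± 13.3), Runx1 (26.8 ± 1.1), Cebpd (22.7 ± 2.75), Cebpa (17.9 ± 0.849), Runx2 (15.1 ± 2.2), Sox9 (15 ± 0.156), Pparg (3.95 ± 0.0283), Alpl (0.72 ± 0.113) and Sp7 (0.14 ± 0.0283), with Runx2 and Sox9 overlapping. Sox9 in the shPkm2-labelled libraries (34.0 ± 3.83) followed Cebpb (109 ± 8.17). Cebpa (17.9 ± 2.16), Runx1 (16.1 ± 1.18), Runx2 (15.2 ± 1.24) and Cebpd (15 ± 0.693) came next, each overlapping its neighbour. Pparg (2.72 ± 0.438), Alpl (0.58 ± 0.0849) and Sp7 (0.075 ± 0.0495) stayed at the end.

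The scaling between libraries bears on all these values, since TMM places the median of all genes near 0. With library totals alone, the median log2 fold change of all tested genes was 0.19 in shPkm1 against shScr, 0.33 in the shPkm2-labelled libraries against shScr and 0.14 between the Pkm-targeting groups. Of the genes called, 65.8%, 69.3% and 61.3% were then higher, in place of 50.3%, 49.8% and 48.4%. On log2(TPM + 1), where a fold change is of the value plus 1 and understates low genes, the medians were 0.31, 0.36 and 0.06, and 78.1%, 75.7% and 53.8% of calls were higher. Of the regulators, 3 were called higher and 1 lower in shPkm1 with library totals, 4 and 2 in the shPkm2-labelled libraries and 1 and 2 between the Pkm-targeting groups. On log2(TPM + 1) these were 5 and 0, 5 and 2, and 1 and 3. Of all 12643 genes, 7772, 8797 and 6979 were called with library totals and 7926, 8744 and 6017 on log2(TPM + 1). Among these calls the higher ones were the majority in every comparison. The changes of Runx2 and Cebpa against shScr and of Sox9 and Runx1 in the shPkm2-labelled libraries kept their direction and their call under every scaling tried. So did those of Cebpd in the shPkm2-labelled libraries and of Pparg in shPkm1 against shScr.

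**Figure D3:**
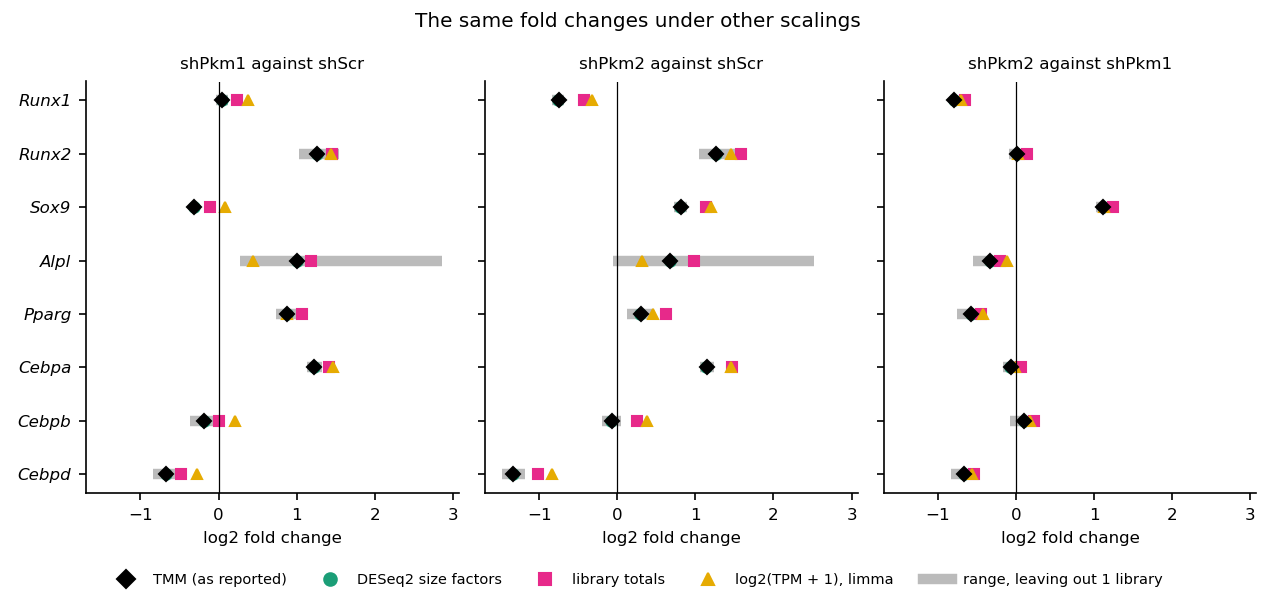
Log2 fold change (horizontal axis) of the 8 tested regulators in each comparison with TMM factors, DESeq2 size factors (largely hidden under TMM), library totals and log2(TPM + 1) in limma. Grey bars span the fits that leave out 1 library. In the comparisons with shScr, library totals lie to the right of TMM for all 8 regulators, and the grey bar of Alpl is the longest.

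Transcripts of the regulators were tested in a separate edgeR fit of 33433 transcripts. The table lists 44 transcripts of these genes, of which 29 were tested and 7 were at 0 in every library. In shPkm1 against shScr, 0 of the 29 passed an adjusted p of 0.05 (10.8% of all transcripts did), while 8 had an unadjusted p under 0.05 and limma on log2(TPM + 1) called 5. Of the 8, 5 were the transcripts of Cebpa, as were all 5 called by limma, and these hold identical values and so stand for 1 measurement. In the shPkm2-labelled libraries against shScr 3 passed (17.2% of all transcripts did), and against shPkm1 2 passed (7.91% did). The only transcript of Sox9, NM_011448.4, was called in both, at 0.84 (adjusted p 0.00617) and 1.11 (adjusted p 0.00633). The only transcript of Cebpd, NM_007679.4, was lower in the shPkm2-labelled libraries against shScr, at -1.31 (adjusted p 0.0133). The remaining transcript counted in both was NM_001146038.2 of Runx2, with 0 counts in the shScr and shPkm1 libraries and 190.02 and 185.4 in the shPkm2-labelled libraries. It passed the filter through the shPkm2-labelled libraries alone, so its values are a description, and with the replicate block it was not called. The counts of calls rested on single libraries: leaving out 1 gave 0 to 5 calls in the former comparison and 0 to 2 in the latter.

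Isoform counts depend on how reads shared by several transcripts were divided. The 5 transcripts of Cebpa held identical values in each library, 36.4 and 37.4 counts each in shScr, and the 3 transcripts of Cebpb likewise. For Runx1 the division swung between replicates: NM_009821.3 had 0 and 300.59 counts in the shScr libraries and 0 and 125.06 in shPkm1. Summed by annotated start, Runx1 transcripts from the distal start were at 11.1 and 12.6 TPM in shScr, 11.6 and 13 in shPkm1 and 7.85 and 6.87 in the shPkm2-labelled libraries. The shPkm2-labelled libraries were lowest at that start. The other 2 Runx1 transcripts, from starts further downstream, summed to 8.99 and 8.02 TPM in shScr, 16 and 13 in shPkm1 and 9.11 and 8.42 in the shPkm2-labelled libraries, where shScr and the latter overlapped. Runx2 transcripts from the distal start, the start used most in osteoblasts, were at 0.49 and 1.59 TPM in shScr, 7.46 and 3.42 in shPkm1 and 5.2 and 5.93 in the shPkm2-labelled libraries. Those from the proximal start were at 1.87 and 2.39, 4.31 and 5.86, and 6.91 and 4.6 TPM. At both starts of Runx2 every Pkm-targeting library lay above both control libraries. The distal start made up 12.4% and 26.2% of Runx2 TPM in shScr, 44.8% and 25.3% in shPkm1 and 32.3% and 41.3% in the shPkm2-labelled libraries, with overlap between shScr and shPkm1. For Pparg, the transcript of the fat-selective start, NM_011146.3, had 7.26 counts in 1 shPkm2-labelled library and 0 in the other 5 libraries. The other curated transcript, NM_001127330.2, carried most Pparg counts in 4 of the 6 libraries, and 0 in the first shScr library.

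**Figure D4:**
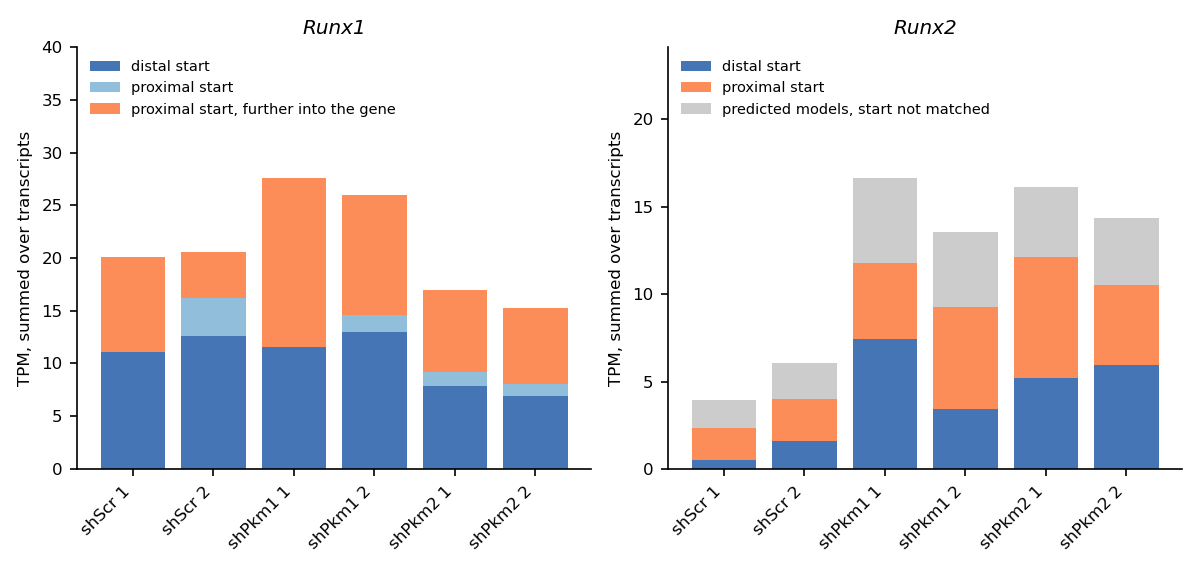
TPM of Runx1 and Runx2 (vertical axes, from 0) in each library, stacked by the annotated start of the transcripts. Grey marks predicted Runx2 models whose start was not matched. Both the distal and the proximal parts of Runx2 are taller in the 4 Pkm-targeting libraries than in shScr, and the split between Runx1 starts varies between replicates.

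Several regulators share exon bases with a gene on the opposite strand, and strandedness of the libraries is not given in the sources used here. In the GENCODE annotation of GRCm38, Cebpb shares 312 exon bases with Tmem189, Cebpd 562 with Spidr, Runx2 519 with Runx2os1, Runx1 106 with Gm26626 and Cebpa 51 with Gm45091. Reads from such stretches cannot be assigned to a strand here, and their part in the results was not tested.

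The partner and target genes of the bone regulators were counted in lists written with earlier results of these data known. Of 17 other transcription factors of bone formation 14 were tested. In shPkm1 against shScr 10 rose and 1 fell, or 78.6% of the 14, where 63.1% of all genes passed (31.8% higher and 31.4% lower). Their median log2 fold change was 0.76, where that of all genes was -0.000147. In the shPkm2-labelled libraries against shScr 7 rose and 1 fell, or 57.1%, where 68.0% of all genes passed (33.9% higher and 34.2% lower), with a median of 0.47 against 0.00736 for all genes. With library totals 10 rose and 1 fell there (median 0.8, against 0.33 for all genes). With limma on log2(TPM + 1) 11 rose and 0 fell (median 0.6, against 0.36 for all genes). Between the Pkm-targeting groups 8 were higher and 4 lower, or 85.7%, where 53.0% of all genes passed (25.7% and 27.3%). The median there was 0.31 against 0.00464. Fewer of the 14 passed without the first shPkm2-labelled library, a fit with 1 library in that group, and fewer of all genes did too. The largest rise in the shPkm2-labelled libraries was that of Dlx3, a homeobox factor of bone and skin, from 1.19 and 1.94 TPM in shScr to 31.4 and 27.9 (log2 fold change 3.79, SE 0.163, adjusted p 3.58e-10), with 1.66 and 1.42 in shPkm1 (adjusted p 0.13 against shScr). Zfp521, a zinc finger protein that antagonises Runx2, fell in shPkm1, from 1.28 and 0.96 TPM to 0.1 and 0.13 (log2 fold change -3.67, SE 0.347, adjusted p 1.26e-06), and was at 1.63 and 1.72 in the shPkm2-labelled libraries (adjusted p 0.652 against shScr). Runx3, the remaining Runx paralogue, was at 10.0 and 12.2 TPM in shScr, 34.1 and 31.9 in shPkm1 and 18.7 and 15.6 in the shPkm2-labelled libraries. It rose in shPkm1 (log2 fold change 1.18, adjusted p 7.75e-07). The change in the shPkm2-labelled libraries was 0.16 (adjusted p 0.196), which passed with library totals (0.49, adjusted p 0.00266).

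Of 20 matrix and mineralization genes of osteoblasts 16 were tested. In shPkm1 10 rose and 2 fell (median 1.38), where 31.8% of all genes were higher and 31.4% lower. For the shPkm2-labelled libraries these were 7 and 5, where 33.9% and 34.2% of all genes were higher and lower. The median was 0.48, or 0.8 with library totals, when that of all genes was 0.33. Against shPkm1, the shPkm2-labelled libraries had 5 higher and 7 lower, where 25.7% and 27.3% of all genes were. The median there was -0.57, or -0.44 with library totals and -0.19 with limma on log2(TPM + 1). The calls made up 75% of the 16 in each comparison, against 63.1%, 68.0% and 53.0% of all genes. Col1a1, the main collagen of bone, was at 359 and 362 TPM in shScr, 2585 and 2552 in shPkm1 and 50.5 and 43.2 in the shPkm2-labelled libraries. It rose in the former and fell in the latter (log2 fold changes 2.44 and -3.41, adjusted p 1.47e-08 and 3.61e-10). Spp1, osteopontin, rose from 169 and 228 TPM in shScr to 558 and 539 in shPkm1 (log2 fold change 1.09, adjusted p 5.2e-06) and 2904 and 2793 in the shPkm2-labelled libraries (log2 fold change 3.4, adjusted p 1.1e-10). Bglap2, an osteocalcin gene, fell from 39.0 and 44.8 TPM in shScr to 9.65 and 8.78 in shPkm1 and 10.5 and 8.89 in the shPkm2-labelled libraries, although its family of near-identical genes makes the assignment of reads uncertain. Ibsp, bone sialoprotein, had 0 counts in every library.

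In bone morphogenetic protein signalling 19 of 24 genes were tested. In shPkm1 15 rose and 1 fell (median 1.01), or 84.2% called against 63.1% of all genes (31.8% of all higher and 31.4% lower). The shPkm2-labelled libraries had 14 higher and 1 lower (median 0.92), or 78.9% against 68.0% of all genes, with 33.9% higher and 34.2% lower. The direct comparison of the Pkm-targeting groups gave 5 higher and 7 lower, or 63.2% against 53.0% of all genes. The median was -0.15, or -0.02 with library totals, when that of all genes was 0.14. The ligand Bmp4 was at 3.15 and 5.37 TPM in shScr, 57.8 and 54.9 in shPkm1 and 12.2 and 11.5 in the shPkm2-labelled libraries. Of the secreted inhibitors, Grem1 rose from 3.73 and 6.75 TPM to 38.4 and 34.4 in shPkm1 and 68.5 and 61.8 in the shPkm2-labelled libraries, while Chrd fell from 13 and 12.7 TPM to 7.29 and 7.51 and to 1.13 and 0.69. The target Id2 was at 3.45 and 4.59 TPM in shScr, 20.5 and 19.1 in shPkm1 and 31.0 and 34.5 in the shPkm2-labelled libraries.

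Most cartilage genes were too low to test: of 24 listed 8 were tested and 15 were below the filter. Of the 8, 5 rose in shPkm1 (median 1.09), or 62.5% called against 63.1% of all genes (31.8% higher). In the shPkm2-labelled libraries 5 rose and 1 fell (median 1.48), or 5 rose alone with library totals. The 6 calls were 75%, against 68.0% of all genes (33.9% higher and 34.2% lower). Between the Pkm-targeting groups 2 were lower in the shPkm2-labelled libraries (median 0.12), or 25% against 53.0% of all genes (27.3% lower), with 1 more higher under library totals. Col11a1, a minor cartilage collagen, rose from 0.2 and 0.35 TPM in shScr to 9.07 and 8.93 in shPkm1 (log2 fold change 4.76, SE 0.172, adjusted p 1.58e-10) and to 1.08 and 0.89 in the shPkm2-labelled libraries (1.55, SE 0.214, adjusted p 2.54e-05). Col2a1, the defining cartilage collagen and a direct target of Sox9, did not exceed 0.08 TPM in any library.

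The fat lists were split. Of 30 partners and other factors of fat cell formation 26 were tested. In shPkm1 14 rose and 7 fell (median 0.29), or 16 and 3 with library totals (median 0.48). In the shPkm2-labelled libraries 8 rose and 10 fell (median -0.29), or 11 and 5 with library totals (median 0.04). Against shPkm1 4 were higher and 12 lower (median -0.22), or 5 and 9 with library totals (median -0.09). The calls were 80.8%, 69.2% and 61.5% of the 26, where 63.1%, 68.0% and 53.0% of all genes were called. By direction, 31.8% of all genes were higher and 31.4% lower in shPkm1, 33.9% and 34.2% in the shPkm2-labelled libraries and 25.7% and 27.3% against shPkm1. With library totals the medians of all genes were 0.19, 0.33 and 0.14, and 65.8%, 69.3% and 61.3% of calls were higher. Ebf1, a factor upstream of Cebpa and Pparg, rose from 2.81 and 3.67 TPM to 10.6 and 8.49 in shPkm1 and 11.1 and 8.91 in the shPkm2-labelled libraries. Klf5 fell from 61.2 and 56.6 TPM in shScr to 33.4 and 32.2 in shPkm1 and 32.5 and 24.1 in the shPkm2-labelled libraries (adjusted p 0.0945 between the latter). Of 30 lipid storage and secreted genes 21 were tested, with 6 higher and 10 lower in either group against shScr (medians -0.16 and -0.32, or 0.04 and 0.01 with library totals, when 7 rose and 8 fell and 7 rose and 7 fell). Between the Pkm-targeting groups 4 were higher and 8 lower (median -0.23), or 5 and 5 with library totals (median -0.1). These calls were 76.2%, 76.2% and 57.1% of the 21, beside the same shares of all genes. Lpl, lipoprotein lipase, was at 7.46 and 4.77 TPM in shScr, 7.93 and 7.8 in shPkm1 and 29.4 and 26.6 in the shPkm2-labelled libraries. Pnpla2, among the larger number that fell, went from 47.1 and 46.9 TPM in shScr to 26.5 and 26.4 in shPkm1. It was at 33.1 and 28.9 in the shPkm2-labelled libraries (log2 fold changes -1.22 and -1.06 against shScr).

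Of 21 brown fat genes and Prdm16 partners 12 were tested. In shPkm1 1 rose and 5 fell (median -0.18). These 6 were 50% of the 12, where 63.1% of all genes were called (31.8% higher and 31.4% lower). With library totals 3 rose and 3 fell (median 0.02, against 0.19 for all genes). Fewer of the 12 passed without the second shPkm1 library, a fit with 1 library in that group, and fewer of all genes did too. The shPkm2-labelled libraries had 6 higher and 4 lower (median 0.44), and against shPkm1 5 were higher and 3 lower (median 0.3). These were 83.3% and 66.7% of the 12, where 68.0% (33.9% higher and 34.2% lower) and 53.0% (25.7% and 27.3%) of all genes were called. With library totals they were 7 and 3 (median 0.76, against 0.33 for all genes) and 6 and 3 (median 0.43, against 0.14). Cox8b, a cytochrome oxidase subunit of brown fat and muscle, fell from 290 and 224 TPM in shScr to 24.9 and 30.0 in shPkm1 and 1.26 and 1.78 in the shPkm2-labelled libraries. Ctbp2, a corepressor that binds Prdm16, rose from 13.6 and 13.6 TPM to 27.6 and 24.1 and to 32.3 and 34.3.

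**Figure D5:**
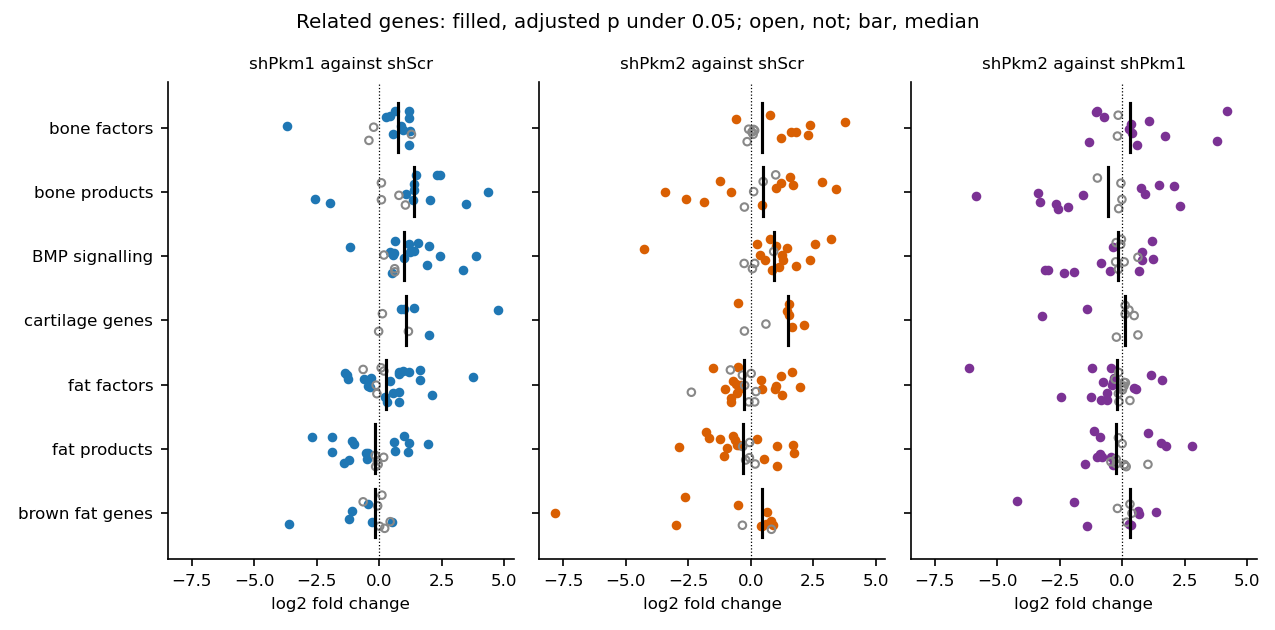
Log2 fold change (horizontal axis) of every tested gene in the 7 lists, by comparison. Filled points passed an adjusted p of 0.05, open points did not, and black bars are list medians. BMP signalling lies mostly to the right of 0 in both comparisons with shScr (medians 1.01 and 0.92), and the fat products lie on both sides (medians -0.16 and -0.32).

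Markers of bone, cartilage, fat and other cell types were summed in each library. The summed TPM of 6 osteoblast markers was 40.2 to 46.6 in shScr, 11.2 to 12.2 in shPkm1 and 10.8 to 12.4 in the shPkm2-labelled libraries, mostly from Bglap2. The 5 chondrocyte markers with a row summed to at most 0.08 TPM, and 2 of them were at 0 in every library. The 5 adipocyte markers summed to 0.24 to 0.33, 0.28 to 0.48 and 0.64 to 1.06 TPM. Other lists moved with the groups. The 6 fibroblast markers summed to 16.0 to 23.7 TPM in shScr, 60.5 to 69.0 in shPkm1 and 21.5 to 21.7 in the shPkm2-labelled libraries, and Dcn held most of the sum in shScr and shPkm1. Pdgfra, a receptor of mesenchymal progenitors and fibroblasts, was at 1.02 and 1.61 TPM in shScr, 8.44 and 8.34 in shPkm1 and 10.2 and 9.47 in the shPkm2-labelled libraries, and rose in both (log2 fold changes 2.3 and 2.46, adjusted p 3.75e-08 and 7.35e-09). By contrast, within the shPkm2-labelled libraries Dcn fell by 1.11 on the log2 scale (adjusted p 5.67e-05) and Pi16 by 0.87 (adjusted p 0.0182, or 0.113 with library totals). The 6 epithelial markers summed to 2.22 to 4.03, 29.1 to 35.2 and 7.02 to 7.15 TPM, mostly from Krt14. The 4 macrophage markers with a row summed to 1.35 to 2.36, 4.46 to 5.85 and 3.15 to 3.74 TPM. Nearly all of the last sum was Cd68, at 0.62 and 1.47 TPM in shScr and 3.01 and 3.62 in the shPkm2-labelled libraries (adjusted p 0.0101, or 0.0605 without the first shScr library). Csf1r stood at 0.2 and 0.25 TPM in shScr and 0.05 and 0.12 in the shPkm2-labelled libraries, and Itgam at 0.53 and 0.39 and at 0 in both. In shPkm1, Cd68 (3.24 and 2.32 TPM) and Csf1r (0.87 and 0.78) were higher than in shScr, and Itgam (0.15 and 0.02) was lower. Lyz2 was at 1.59 and 1.34 TPM in shPkm1, with 0 and 0.25 in shScr. The 6 endothelial markers summed to at most 0.78 TPM. The 12 muscle markers summed to 23772 to 30570 TPM in shScr, 11988 to 12920 in shPkm1 and 1054 to 1128 in the shPkm2-labelled libraries, without overlap between groups. The part of these cell type markers and of the muscle level in the changes of the regulators was not tested.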

How the data were processed

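RNA was measured by sequencing in 6 libraries, 2 in each of 3 groups, with groups and replicate numbers from the titles. The authors deposited 1 table with a row per RefSeq transcript (57920) and, per the file headers, an estimated count, an FPKM and a TPM value for each library. The estimated counts are not normalized and were rounded here after summing. The deposited FPKM values were scaled by the authors to length and depth and were not used here. The deposited TPM values were scaled by the authors to length and the same sum in each library. The submitters' processing notes name HISAT, StringTie, Bowtie, RSEM, DESeq2 and the build mm10, without roles or versions. The 9 columns of the authors' group means were not used.

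Estimated counts were summed per NCBI gene (17558 genes, 17445 with a symbol). The 113 without a symbol held at most 0.148% of a library's counts. Genes were tested with edgeR 4.0.16 in R 4.3.3: filterByExpr (minimum count 10, minimum total 15), TMM, all 6 libraries in 1 quasi-likelihood fit, two-sided F-tests and Benjamini-Hochberg adjustment over 12643 genes at 0.05. SE is the absolute log2 fold change over the root of F. With 2 libraries against 2 an exact permutation test cannot go below 0.333, so none was used. Transcripts were fitted separately. Replicates differed by more than sampling noise, with a chi-square per degree of freedom of 32.3 (shScr), 6.16 (shPkm1) and 6.93 (shPkm2). The fit shares its estimate of spread over these unlike groups. Fitting only the Pkm-targeting groups called 7831 of 12441 genes between them, in place of 6703 of 12643. The scripts were tested on simulated data. Floors cover counting error only.

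The regulators and gene lists were chosen with earlier results of these data known. From each list and comparison, up to 2 called rises and 2 called falls of the largest size could be named, if the gene averaged 50 counts or more and its groups did not overlap. Runx3 counts among these in the comparison of the Pkm-targeting groups, and Col2a1, Ibsp and the cell type markers were named after their values were seen. Transcripts were eligible with a mean of at least 10 counts. NM_011146.3 of Pparg was an exception. Alternatives were DESeq2 1.42.0 and its size factors, library totals, other filters, a replicate block, fits of only 2 groups, limma 3.58.1 on log2(TPM + 1) and log2(TPM + 0.1), and leaving out each library. Windows and coordinates came from RefSeq and GENCODE tables of GRCm38.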

Additional observations from a re-analysis of the deposited data

How the results depend on the processing

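Of 393 counts of called regulators, transcripts and list genes under the alternatives, 379 stayed within 1.5 times the reported count and 14 did not. The number of called regulators ran from 4 to 6 in shPkm1 against shScr, 5 to 7 in the shPkm2-labelled libraries against shScr and 3 to 4 between the Pkm-targeting groups. Called transcripts of the regulators rose from 0 to 5 (shPkm1 against shScr) and from 3 to 8 (shPkm2-labelled libraries against shScr) with limma on either pseudocount, the 5 added being Cebpa transcripts with identical values. With the replicate block they fell from 2 to 1 between the Pkm-targeting groups. Leaving out each library gave 0 to 5 transcripts in the shPkm2-labelled libraries against shScr and 0 to 2 against shPkm1, 3 to 6 brown fat genes in shPkm1 and 7 to 12 bone factors between the Pkm-targeting groups. Of 357 log2 fold changes of single regulators under alternatives, 316 kept their direction and side of the threshold, 13 lost a call, 10 gained one in the same direction and 18 changed sign. Of these 18, 16 had no call as reported, and 2 of the 16 passed the threshold in the other direction: Cebpb in the shPkm2-labelled libraries with limma, at 0.38 (adjusted p 0.0319) and 0.39 (adjusted p 0.0314). The other 2 of the 18 were Sox9 in shPkm1, at 0.08 and 0.09 with limma. In shPkm1, Cebpb was at 0.01 with library totals, 0.21 with limma on either pseudocount, and Runx1 ran from -0.03 to 0.12 over the fits without 1 library, where Cebpb ran from -0.36 to 0.01. In the shPkm2-labelled libraries, Cebpb was at 0.25 with library totals and -0.19 to 0.05 without 1 library, and Alpl at -0.06 to 2.52. Between the Pkm-targeting groups, Runx2 ran from -0.09 to 0.11, Cebpa from -0.17 to 0.02 and Cebpb from -0.08 to 0.29 without 1 library, and Cebpa was at 0.06 with library totals. The cause was not tested. Replicate numbers did not pair the libraries: deviations of same-numbered libraries correlated at -0.00606, -0.00824 and 0.068 across genes. With the replicate block the call of Pparg between the Pkm-targeting groups was lost (-0.58, adjusted p 0.0543), and no other call of a regulator was. For 109 other named results, 1583 of 1624 values kept direction and side of the threshold, 30 lost a call, 11 gained one and none changed sign. Sp7 and Alpl had low counts, at most 5 and 20 in a library.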
